A study of Mus musculus with 5 samples.

Results

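The Spink, Spint and Wfdc genes encode small secreted or membrane-bound inhibitors of serine proteases. The deposited count table held 37 genes of 78334 whose symbol was Spink, Spint or Wfdc with a number, or was Slpi or Eppin. The rule used names alone and no measured value, but the family was chosen with earlier results of these data known. It gave 12 Spink genes, 5 Spint genes and 20 genes with a WAP domain, Eppin among them. RNA of mouse visceral adipose tissue had been sequenced in 5 libraries from male C57BL/6 mice. In 2 resveratrol libraries the mice had eaten a diet with 60% of its energy as fat for 8 weeks, starting at 8 weeks of age, and then received resveratrol by gastric tube at 2.25 mg/kg each day for 28 days. In 2 obesity libraries the mice had the same diet and received the vehicle alone. In 1 control library the mouse had eaten standard chow and received the vehicle. For all 5 libraries the labels give a diet start at 8 weeks of age and a treatment start at 16 weeks. They also give 28 days of resveratrol or vehicle and a study of 12 weeks for all of them. The labels do not name the visceral fat depot, and they do not say whether the pairs of libraries came from separate mice, so p-values here measure only the spread between these libraries.

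Each family carries a different inhibitory fold. Spink proteins hold Kazal domains, Spint proteins hold Kunitz domains, and Wfdc proteins hold the WAP domain, a core with a fixed pattern of disulfide bonds, while Eppin joins a WAP with a Kunitz domain. A loop of the Kazal or Kunitz domain enters the active site of a trypsin-like protease and blocks it, and many WAP proteins also kill bacteria. Many of these genes are known from epithelia of the male reproductive tract, where their products coat sperm and hold proteases in check. A few are known from epithelial membranes, leukocytes, macrophages or fat cells instead.

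The libraries held 21646089 and 26486024 counts for resveratrol, 19540961 and 21690850 for obesity and 27026597 for control. Libraries of 1 group stood apart in content. Over 13 adipocyte markers, all with counts in every library, the summed level was 6259 and 26365 CPM (counts of a gene per 1000000 counts, with libraries scaled to each other by the TMM method) in the resveratrol libraries, 23428 and 26150 in the obesity libraries and 513 in the control library. Over 12 markers of epididymis epithelium it was 3401 and 0.35 CPM for resveratrol, 17.8 and 0.238 for obesity and 61820 for control, where none of the 12 was at 0 counts. The 9 smooth muscle markers summed to 46199 and 442 CPM for resveratrol, 650 and 363 for obesity and 2340 for control. The part of these differences in each result below was not tested, and in bulk tissue fewer cells of a type and less RNA per cell cannot be told apart.

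Summed over all 37 genes, the inhibitors reached 1336 and 369.97 CPM in the resveratrol libraries, 281 and 94.9 CPM in the obesity libraries and 10489 CPM in the control library. They made up 1.11% of all counts in the control library. The genes with any count numbered 26 and 14 for resveratrol, 21 and 14 for obesity and 31 for control. At 100 CPM or more stood 2 genes and 1 gene in the resveratrol libraries, none in either obesity library and 18 in the control library. In the control library the sum was spread over many genes, the first 3 of which (Spink8, Wfdc10 and Spink11) held 43.5% of it. The other libraries were each carried by a few. Spink8 and Spint2 made up 87.3% of the sum in resveratrol library 1, Slpi and Wfdc21 76.9% in resveratrol library 2, Spint2 and Wfdc21 66.5% in obesity library 1, and Wfdc21 and Spint2 82.9% in obesity library 2.

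**Figure D1:**
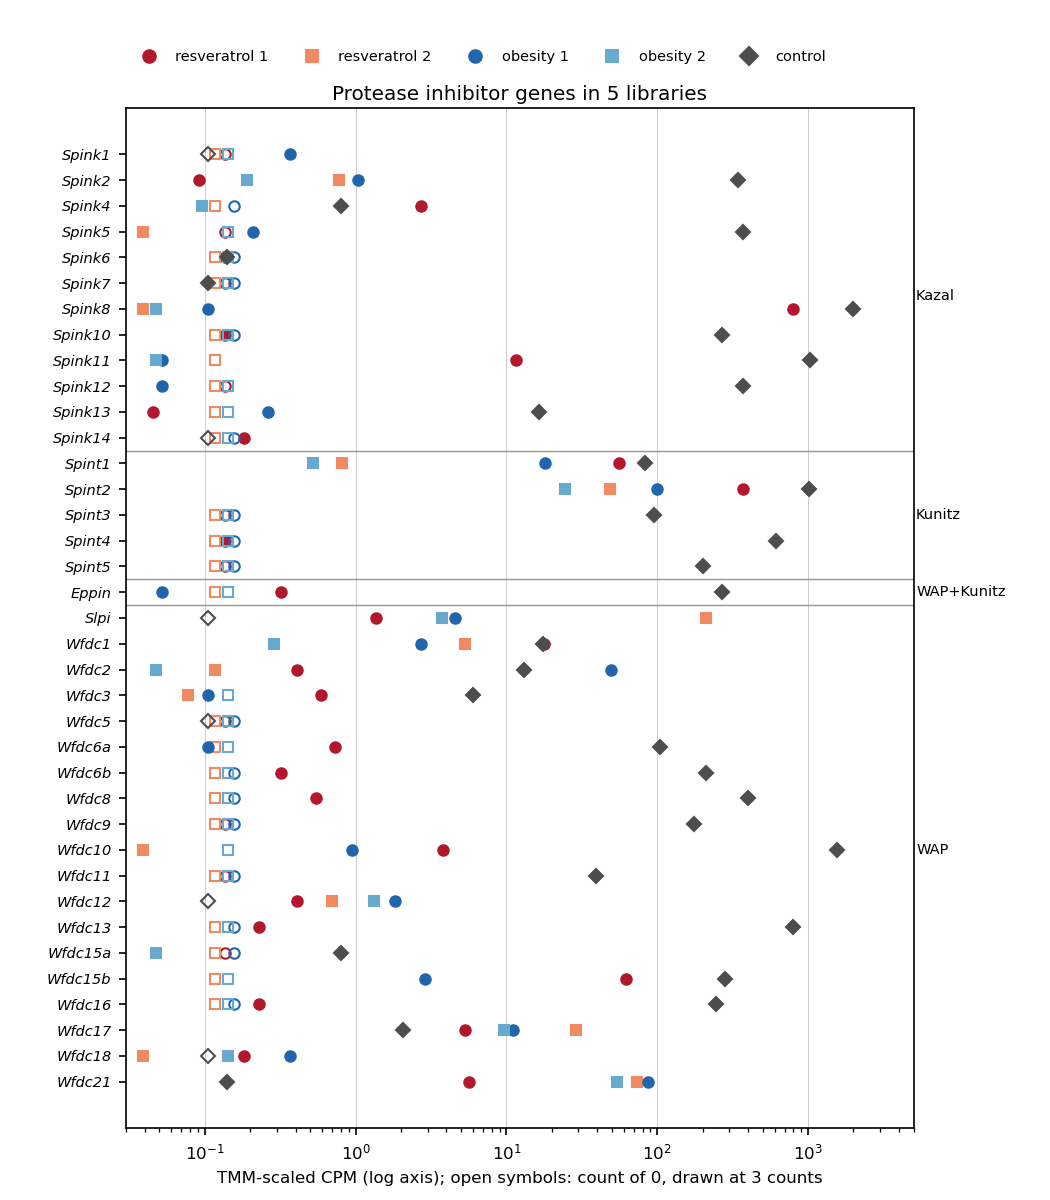
Level of each of the 37 inhibitor genes in the 5 libraries, grouped by domain. The horizontal axis is TMM-scaled CPM on a log scale; each symbol is 1 library; open symbols are counts of 0 drawn at the level of 3 counts, so that 1 or 2 counts can lie to their left. The control symbol is far to the right for most Spink, Spint and Wfdc genes, while Slpi, Wfdc12, Wfdc17 and Wfdc21 have it at the left end.

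Of the 37 genes, 31 passed the filter on low counts. The other 6 were Spink1, Spink6, Spink7, Spink14, Wfdc5 and Wfdc18. None of them had more than 7 counts in any library, and Wfdc5 had none at all. Wfdc15a was tested but stayed under 1 CPM throughout. Of the 31 genes tested, 14 passed the filter through the control library alone and therefore had to differ from the other groups, so counts over the tested genes are given as a description.

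The quasi-likelihood test of edgeR, with a threshold of 0.05 on the adjusted p, called none of the 24779 genes tested in any of the 3 comparisons (0%), and so 0 of the 31 inhibitors. The smallest adjusted p over the inhibitors was 0.160 for obesity against control, shared by 8 genes (Spink5, Spink10, Spink12, Spint3, Spint4, Spint5, Wfdc9 and Eppin). It was 0.899 for resveratrol against obesity, shared by 22 genes, and 0.175 for resveratrol against control, shared by 4 (Spink5, Spink12, Spint5 and Wfdc9). The 8 and the 4 genes named here all passed the filter through the control library alone. For obesity against control, 23 of the 31 had an unadjusted p under 0.05, against 24.3% of all genes. In the same comparison DESeq2 called 22 inhibitors, against 18.3% of all genes, and limma-voom 0. For resveratrol against obesity, 0 of the 31 had an unadjusted p under 0.05, against 2.34% of all genes (1.92% higher and 0.428% lower), and DESeq2 called 1 inhibitor (Spink8), against 0.884% of all genes, and limma-voom 0. For resveratrol against control the count at an unadjusted p under 0.05 was 20 of 31, against 18.5% of all genes, with 11 called by DESeq2 (12.5% of all genes) and 5 by limma-voom (0.323% of all genes). The spread between the resveratrol libraries was large. The biological coefficient of variation was 79.0% for that pair and 33.9% for the obesity pair, and for obesity against control a fit without resveratrol library 1 called 23 inhibitors (37.9% of all genes) and one without resveratrol library 2 called 24 (37.3% of all genes).

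In obesity against control most of the tested inhibitors had the lower level. The 14 that passed the filter through the control library alone had to be lower in both comparisons with control. The counts and medians against control below therefore describe the genes and are no test. Of the 31, 21 were lower at an unadjusted p under 0.05, where 11.7% of all genes were, and 2 (Wfdc12 and Wfdc21) were higher, where 12.6% of all genes were. The log2 difference was above 0 for 5 of the 31, against 46.9% of all genes. The median over the 31 was -9.31, with genes at 0 counts set at their bound, against -0.10 over all genes tested. Both obesity libraries lay below the control library for 26 of the 31 (48.6% of all genes) and above it for 4 (40.8% of all genes). Resveratrol against control shares the control library with that comparison. There, 18 of 31 were lower at an unadjusted p under 0.05 (8.05% of all genes) and 2 were higher (10.5% of all genes). The log2 difference was above 0 for 5 of the 31 (51.4% of all genes), and the median was -8.27, against 0.04 over all genes. Both resveratrol libraries lay below the control library for 25 of the 31 (41% of all genes) and above it for 4 (37.7% of all genes). In resveratrol against obesity the log2 difference was above 0 for 19 of the 31, against 52.8% of all genes, and the median was 0 at the bounds. Among the 19, Spink10, Spint4, Wfdc6b, Wfdc8, Wfdc13 and Wfdc16 had at most 12 counts in resveratrol library 1. They had no count in resveratrol library 2 or in obesity.

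Chromosome 2 held 20 of the 37 genes. Of these, 14 lay next to each other with no other protein-coding gene between them, in the order Wfdc2, Spint3, Wfdc6a, Eppin, Wfdc8, Wfdc6b, Wfdc16, Wfdc9, Wfdc10, Wfdc11, Wfdc13, Spint4, Spint5 and Wfdc3. Their summed level was 7.31 and 0.233 CPM in the resveratrol libraries, 50.4 and 0.0476 CPM in the obesity libraries and 4705 CPM in the control library. Wfdc2 alone made the sum in obesity library 1 as high as it was. The number of the 14 genes at 0 counts was 4 and 11 for resveratrol, 9 and 13 for obesity and 0 for control.

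**Figure D2:**
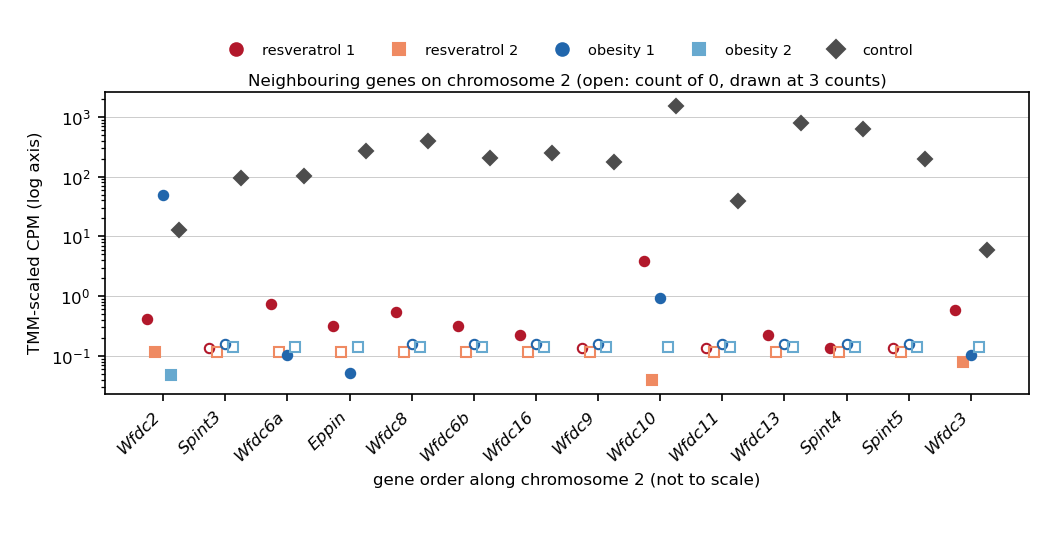
The 14 neighbouring inhibitor genes in their order along chromosome 2, with equal spacing in place of distance. The vertical axis is TMM-scaled CPM on a log scale, each symbol is 1 library and open symbols are counts of 0 drawn at 3 counts. The control library lies between 5.96 CPM (Wfdc3) and 1545 CPM (Wfdc10), and in the other 4 libraries no gene but Wfdc2 passes 3.82 CPM.

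The bases before the start sites of 3 genes of this run are shown because the run, Wfdc2 apart, was high in the control library and near 0 elsewhere, and those of Wfdc15b and Slpi because these genes, also on chromosome 2, had other patterns. Each is the 250 bases upstream of the start site, 5' to 3' on the gene's strand, from RefSeq on GRCm38.p6: Wfdc10 at chr2:164655796-164656045 on the plus strand, Spint4 at chr2:164698251-164698500 on the plus strand, Spint3 at chr2:164573457-164573706 on the minus strand, Wfdc15b at chr2:164221664-164221913 on the minus strand and Slpi at chr2:164356508-164356757 on the minus strand. Capitals mark TGTTCT (the letters of an androgen or glucocorticoid response half-site), TATAAA (the letters of a TATA box) and AGGAAG (letters with an ETS core), or their reverse complements.
Wfdc10: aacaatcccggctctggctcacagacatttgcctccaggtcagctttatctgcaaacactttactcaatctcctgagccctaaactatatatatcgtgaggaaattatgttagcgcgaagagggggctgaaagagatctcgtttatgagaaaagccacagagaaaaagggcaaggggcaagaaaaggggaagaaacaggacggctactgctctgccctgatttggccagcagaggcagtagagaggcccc
Spint4: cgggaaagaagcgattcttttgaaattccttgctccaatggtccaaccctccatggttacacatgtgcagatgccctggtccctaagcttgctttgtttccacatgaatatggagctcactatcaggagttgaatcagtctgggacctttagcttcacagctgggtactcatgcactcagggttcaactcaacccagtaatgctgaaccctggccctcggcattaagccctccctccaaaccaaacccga
Spint3: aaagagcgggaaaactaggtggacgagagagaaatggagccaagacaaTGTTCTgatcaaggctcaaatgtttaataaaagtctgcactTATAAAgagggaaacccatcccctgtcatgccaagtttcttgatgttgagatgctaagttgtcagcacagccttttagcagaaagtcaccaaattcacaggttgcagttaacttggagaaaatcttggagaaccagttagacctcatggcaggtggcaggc
Wfdc15b: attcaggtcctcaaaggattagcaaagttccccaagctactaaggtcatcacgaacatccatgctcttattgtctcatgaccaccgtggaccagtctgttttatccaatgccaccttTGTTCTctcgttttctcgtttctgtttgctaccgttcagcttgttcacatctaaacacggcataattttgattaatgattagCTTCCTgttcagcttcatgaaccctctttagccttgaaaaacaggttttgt
Slpi: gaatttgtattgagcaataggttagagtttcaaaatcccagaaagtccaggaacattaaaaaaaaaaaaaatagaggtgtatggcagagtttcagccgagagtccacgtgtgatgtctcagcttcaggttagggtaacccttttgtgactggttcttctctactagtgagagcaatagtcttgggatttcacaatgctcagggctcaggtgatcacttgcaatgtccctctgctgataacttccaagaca
Spint3 held TGTTCT and TATAAA, Wfdc15b held TGTTCT and CTTCCT, the reverse complement of AGGAAG, and the other 3 held none of them. Of the run's genes, Wfdc10 and Spint4 were shown for the highest control levels per kilobase, while Spint3 was picked by name. A window was listed for 22 of the 37 genes and for 13 of the 14 neighbours. TGTTCT, searched on both strands, was in 3 of the 22 (2 of the 13) and in 16.1% of all 32851 windows. TATAAA was in 3 of the 22 (2 of the 13) and in 12.4% of all windows. AGGAAG was in 7 of the 22 (2 of the 13) and in 29.5% of all windows. These matches are letters in a window and no measured binding.

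Among the run's genes with a WAP domain, Wfdc10 was the highest in the control library. It had 3.82 and 0.0389 CPM in the resveratrol libraries, 0.939 and 0 CPM in the obesity libraries and 1545 CPM in the control library (95% exact interval 1531 to 1560, counting error only). Per kilobase of exon its control level of 3367 CPM ranked 21 over all genes with a known length. The summed counts were 3449-fold lower in obesity than in control (log2 difference -11.69, SE 3.16, adjusted p = 0.182).

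Wfdc13, next but one to it, had 0.227 and 0 CPM for resveratrol, 0 in both obesity libraries and 797 CPM for control. Wfdc8 had 0.545 and 0 CPM for resveratrol, 0 in both obesity libraries and 397 CPM for control. Outside the control library both genes had counts in resveratrol library 1 alone, 5 for Wfdc13 and 12 for Wfdc8. Against a floor of 3 counts per library, Wfdc13 was at least 5323-fold lower and Wfdc8 at least 2649-fold lower in obesity than in control. Wfdc16 had 0.227 and 0 CPM for resveratrol, 0 in both obesity libraries and 244 CPM for control, a level at least 1630-fold lower in obesity than in control.

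Wfdc6a and Wfdc6b share long stretches of sequence: 46.7% and 40.9% of the 50-base words of their transcripts occurred in the other gene, so reads may have been divided between them and their single values are uncertain. Wfdc6a had 0.727 and 0 CPM for resveratrol, 0.104 and 0 for obesity and 104 for control. Wfdc6b had 0.318 and 0 CPM for resveratrol, 0 in both obesity libraries and 209 for control. Wfdc6b also overlaps Wfdc8 on the opposite strand over 10.7% of its exon length, and the strand setting of the counting is not given.

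Wfdc9 and Wfdc11 had 0 counts in all 4 libraries of mice on the high-fat diet, against 175 CPM and 39.1 CPM in the control library. Wfdc9 was at least 1385-fold lower in resveratrol and at least 1170-fold lower in obesity than in control. Wfdc11 was at least 309-fold lower in resveratrol and at least 261-fold lower in obesity than in control. Wfdc3, at the far end of the run, had 0.591 and 0.0778 CPM for resveratrol, 0.104 and 0 for obesity and 5.96 for control, the lowest control level of the 14.

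Eppin, whose protein sits on the surface of sperm and binds semenogelin in human semen, had 0.318 and 0 CPM for resveratrol, 0.0522 and 0 for obesity and 267 CPM for control. Its 7 counts for resveratrol and 1 count for obesity stood against 7651 in the control library. The ratio was 1819-fold lower in resveratrol (interval 882 to 4526).

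The Kunitz genes of the run, Spint3, Spint4 and Spint5, sit among the WAP genes and had the same pattern. Spint3 had 0 counts in all 4 libraries of mice on the high-fat diet and 95.1 CPM in the control library. Spint5 likewise had 0 counts in those 4 libraries and 200.2 CPM in the control library. Both were therefore seen in the control library only, at this depth. Spint4 had 0.136 and 0 CPM for resveratrol, 0 in both obesity libraries and 615 CPM for control, at least 4108-fold lower in obesity. All 3 were among the genes that passed the filter on low counts through the control library alone, and their adjusted p of 0.160 for obesity against control did not pass the threshold.

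Wfdc2 broke the pattern of its neighbours. The gene encodes HE4, first found in human epididymis and made by many secretory epithelia. It had 0.409 and 0.117 CPM in the resveratrol libraries, 49.2 and 0.0476 CPM in the obesity libraries and 13.01 CPM in the control library. The value of obesity library 1 lay above the control library and that of obesity library 2 was a single count, so the groups overlapped. The log2 difference of obesity against control was 0.92 (SE 2.89, adjusted p = 0.849), and it was -7.93 without obesity library 1. The 6 urothelium markers summed to 59.8 and 28.0 CPM for resveratrol, 436 and 4.24 CPM for obesity and 169 CPM for control. Upk3a, the marker that sets urothelium apart from other epithelia, stood at 84.3 CPM in obesity library 1 and at 0 in obesity library 2. The part of urothelial RNA in the Wfdc2 value was not tested.

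The Spink genes were spread over several chromosomes, with 9 of the 12 on chromosome 18. Their summed level was 811 and 0.856 CPM for resveratrol, 2.09 and 0.381 CPM for obesity and 4389 CPM for control. Spink8, a Kazal gene alone on chromosome 9, was the highest. It had 796 and 0.0389 CPM in the resveratrol libraries, 0.104 and 0.0476 CPM in the obesity libraries and 1978 CPM in the control library. The resveratrol libraries had 17522 counts and 1 count, so the pair stood far apart. The resveratrol mean was 398 ± 563 CPM (SD, n = 2), the obesity mean 0.0760 ± 0.0401 CPM (SD, n = 2). The 4917-fold ratio of resveratrol over obesity rests on library 1 alone; the log2 difference was 12.27 (SE 4.68, adjusted p = 0.899) with both and -0.85 without it.

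Spink11 had 11.5 and 0 CPM for resveratrol, 0.0522 and 0.0476 CPM for obesity and 1035 CPM for control. Spink11 and Spink8 were both at over 1000 CPM in the control library, yet resveratrol library 1 held 40.3% of the control level of Spink8 and 1.11% of that of Spink11. Spink12 had 0 in both resveratrol libraries, 0.0522 and 0 CPM for obesity and 372 CPM for control. Spink10 had 0.136 and 0 CPM for resveratrol, 0 in both obesity libraries and 269 CPM for control. Spink13, whose rat protein binds sperm in the epididymis, had 0.0454 and 0 CPM for resveratrol, 0.261 and 0 for obesity and 16.5 for control. These 3 genes had at most 5 counts in any library other than control.

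Spink2, an inhibitor of the sperm protease acrosin that mouse sperm cells need to form, had 0.0909 and 0.778 CPM for resveratrol, 1.04 and 0.190 CPM for obesity and 345 CPM for control. Its 20 counts in resveratrol library 2 and 20 in obesity library 1 made it the Spink gene with the most counts outside the control library and resveratrol library 1. The 7 testis germ cell markers summed to 2.36 and 0.156 CPM for resveratrol, 0 and 1.29 for obesity and 177 CPM for control, and their part in the Spink2 level was not tested. Spink5, which encodes the skin inhibitor LEKTI of tissue kallikreins, had 0 and 0.0389 CPM for resveratrol, 0.209 and 0 for obesity and 373 CPM for control. Spink4, known from goblet cells of the gut, was low everywhere, with 2.73 and 0 CPM for resveratrol, 0 and 0.0952 for obesity and 0.802 for control.

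Spint1 and Spint2 encode the membrane-bound inhibitors HAI-1 and HAI-2, which block matriptase, prostasin and the activator of hepatocyte growth factor on epithelial cells. Unlike the Kunitz genes of the run, both had counts in every library. Spint2 had 370.15 and 48.4 CPM in the resveratrol libraries, 99.4 and 24.4 CPM in the obesity libraries and 1011 CPM in the control library. The control library lay above all others and the resveratrol and obesity libraries overlapped. Obesity averaged 61.9 ± 53.0 CPM (SD, n = 2), a log2 difference to control of -4.03 (SE 1.47, adjusted p = 0.205). Resveratrol averaged 209 ± 228 CPM (SD, n = 2), a log2 difference to obesity of 1.76 (SE 1.24, adjusted p = 0.899), which was -0.34 without resveratrol library 1.

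Spint1 had 55.3 and 0.817 CPM for resveratrol, 18.1 and 0.524 CPM for obesity and 83.2 CPM for control. Library 1 of both pairs lay far above library 2, and the resveratrol and obesity groups overlapped. The log2 difference of obesity against control was -3.16 (SE 2.65, adjusted p = 0.454) and that of resveratrol against obesity 1.60 (SE 2.28, adjusted p = 0.922). The 7 general epithelium markers split the libraries in the same way, with 708 and 14.4 CPM for resveratrol, 306 and 3.62 CPM for obesity and 1704 CPM for control. Epcam, an epithelial adhesion protein among them, had 121 and 0.0389 CPM for resveratrol, 9.03 and 0 for obesity and 386 for control. The part of epithelial RNA in the Spint1 and Spint2 levels was not tested.

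Of 16 genes listed around matriptase, prostasin and hepatocyte growth factor, not all of them known targets of HAI-1 or HAI-2 and Epcam among them, 15 were tested and 0 were called. For obesity against control 8 were higher and 7 lower, with a median log2 difference of 0.06 against -0.10 over all genes. St14, which encodes matriptase, had 55.8 and 18.7 CPM for resveratrol, 12.2 and 14.9 for obesity and 127 for control. Plau, which encodes urokinase, had 219 and 132 CPM for resveratrol, 168 and 124 for obesity and 28.4 for control. St14 was thus highest and Plau lowest in the control library.

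Wfdc15b lies in a second run of 4 inhibitors on chromosome 2 (Wfdc5, Wfdc12, Wfdc15a and Wfdc15b) and encodes a mouse protein of 1 WAP domain with antibacterial activity. It had 61.8 and 0 CPM in the resveratrol libraries, 2.87 and 0 CPM in the obesity libraries and 279.5 CPM in the control library. Library 2 of both pairs had no count of it. Its neighbour Wfdc12, a similar antibacterial protein, ran the other way: 0.409 and 0.700 CPM for resveratrol, 1.83 and 1.33 CPM for obesity and 0 counts for control. Wfdc12 overlaps a gene on the opposite strand over 16.1% of its exon length, so its few counts are uncertain. Both obesity libraries lay above both resveratrol libraries (log2 difference of resveratrol against obesity -1.50, SE 0.74, adjusted p = 0.899). It was the only 1 of the 31 for which this held, and for 16.7% of all genes both resveratrol libraries lay below both obesity libraries.

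Wfdc1 encodes ps20, a growth-inhibiting protein known from smooth muscle of the prostate stroma. It was the only 1 of the 31 tested inhibitors for which both resveratrol libraries lay above both obesity libraries, as they did for 16.9% of all genes. It had 17.8 and 5.29 CPM for resveratrol, 2.71 and 0.286 CPM for obesity and 17.5 CPM for control. The log2 difference of resveratrol against obesity was 2.94 (SE 1.29, adjusted p = 0.899). Resveratrol library 1 also held the highest sum of smooth muscle markers, 46199 CPM, while library 2, with 442 CPM, lay within the 363 to 650 CPM of the obesity libraries, and their part in the Wfdc1 level was not tested.

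Slpi, Wfdc17 and Wfdc21 were lower in the control library than in each of the 4 others. Wfdc21, known in mouse as Wdnm1-like and secreted by fat cells, had 5.63 and 73.4 CPM for resveratrol, 87.3 and 54.4 CPM for obesity and 0.139 CPM, or 4 counts, for control. Obesity averaged 70.8 ± 23.3 CPM (SD, n = 2) and its summed counts were 502-fold higher than in control (interval 196 to 1845; log2 difference 8.93, SE 2.44, adjusted p = 0.182). Per kilobase it ranked 287 and 446 over all genes in the obesity libraries. Resveratrol library 1, the low one of its pair, was also the lower one in adipocyte markers. The log2 difference of resveratrol against obesity was -0.84 (SE 1.20, adjusted p = 0.922) and 0.06 without that library.

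Wfdc17, or AMWAP, an inhibitor made by activated mouse macrophages and microglia, had 5.32 and 29.1 CPM for resveratrol, 11.1 and 9.66 CPM for obesity and 2.06 CPM for control. The obesity libraries were close to each other, at 10.4 ± 1.02 CPM (SD, n = 2), and lay between the resveratrol libraries. The log2 difference of obesity against control was 2.33 (SE 1.20, adjusted p = 0.277). The 9 macrophage markers, all with counts in every library, summed to 465 and 3073 CPM for resveratrol, 2806 and 2587 CPM for obesity and 163 CPM for control. Wfdc17, Wfdc18 and Wfdc21 are neighbours on chromosome 11. Wfdc18, the third of them and known from the mammary gland, had at most 7 counts in any library.

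Slpi, which encodes an inhibitor of neutrophil elastase, cathepsin G and mast cell chymase found in mucous secretions, had 1.36 and 211 CPM in the resveratrol libraries, 4.59 and 3.76 CPM in the obesity libraries and 0 counts in the control library. Resveratrol library 2 alone was high, with 5428 counts against 30 in library 1. The obesity libraries lay close together (4.18 ± 0.587 CPM, SD, n = 2) and were at least 39.9-fold above the control floor of 3 counts. The log2 difference of resveratrol against obesity was 4.67 (SE 2.25, adjusted p = 0.899) and -1.60 without resveratrol library 2. The 6 mesothelium markers summed to 213.7 and 219.7 CPM for resveratrol, 140.3 and 19.4 CPM for obesity and 124 CPM for control, so the resveratrol libraries were about level on the whole list. The median over the same 6 markers was 2.07 and 14.6 CPM for resveratrol, 1.02 and 3.17 CPM for obesity and 0.349 CPM for control. The 10 neutrophil markers summed to 8.90 and 20.0 CPM for resveratrol, 15.5 and 15.7 for obesity and 35.9 for control, with Ly6g and Ngp at 0 in every library. Their median was 0.0227 and 0.0778 CPM for resveratrol, 0.130 and 0.190 for obesity and 0.0523 for control. In the control library 5 of the 10 were at 0 counts, so its sum rested on few genes. The part of either cell type in the Slpi level was not tested.

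**Figure D3:**
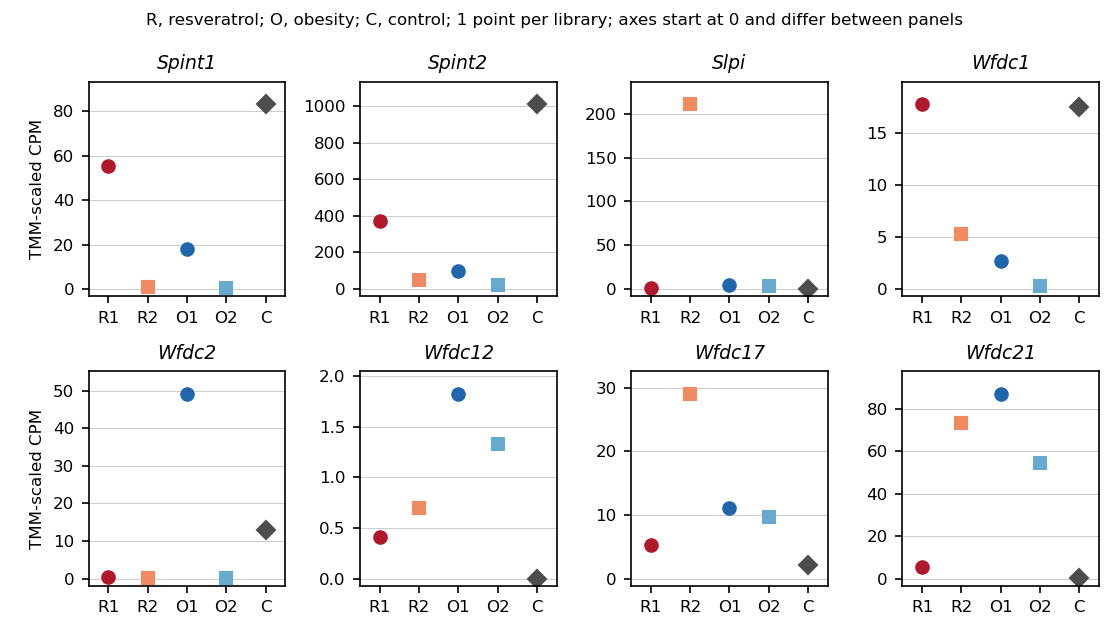
Level of 8 inhibitors with counts in the libraries of mice on the high-fat diet, as TMM-scaled CPM on linear axes that start at 0 and differ between panels; each point is 1 library (R, resveratrol; O, obesity; C, control). Slpi is high in resveratrol library 2 alone (211 CPM), Wfdc2 in obesity library 1 (49.2 CPM), and Wfdc21 in every library but resveratrol library 1 and control.

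Of 12 leukocyte protease genes, all for serine proteases but Cpa3, a mast cell carboxypeptidase, and among them the targets of Slpi, 11 were tested. For obesity against control 10 were higher, 1 was lower and 0 were called, with a median log2 difference of 2.42 at the bounds of genes with 0 counts, against -0.10 over all genes. Cela1, an elastase of pancreas type, had 15.4 and 65.2 CPM for resveratrol, 86.97 and 72.9 CPM for obesity and 14.96 CPM for control. Tpsb2, a mast cell tryptase, had 33.3 and 16.6 CPM for resveratrol, 9.39 and 3.90 for obesity and 0.105 for control. Mcpt4, a mast cell chymase, had 24.2 and 11.6 CPM for resveratrol, 9.29 and 3.71 for obesity and 0 for control. For resveratrol against obesity 7 of the 11 tested genes were higher, 4 were lower and 0 were called. For all 6 mast cell genes of the list (Cma1, Cpa3, Mcpt4, Prss34, Tpsab1 and Tpsb2) both resveratrol libraries lay above both obesity libraries, as they did for 16.9% of all genes. These 6 were set apart from the list after their values were seen, and none of these differences was called.

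Kallikreins and trypsins, which several Spink inhibitors are known to block, were low in every library. Of 15 kallikrein genes 3 were tested and of 10 genes for trypsins and acrosin 2 were tested. The kallikreins summed to 3.32 and 1.98 CPM for resveratrol, 3.08 and 1.86 for obesity and 7.81 for control. Of 8 seminal vesicle protein genes, 1 was tested. In the control library, where Spink5 stood at 373 CPM, Klk5, Klk7 and Klk14, targets of LEKTI in skin, were at 0 counts.

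Related genes outside the 3 families, which share a domain or the inhibitor role, had log2 differences of both signs. The 21 serpins, protease inhibitors with an unrelated fold, had 20 tested. For obesity against control 17 were higher, 3 were lower and 0 were called, with a median log2 difference of 2.95 at the bounds, against -0.10 over all genes. Serpinh1, a collagen chaperone and no protease inhibitor, had 389 and 1070.1 CPM for resveratrol, 844 and 1110.1 for obesity and 51.4 for control. Serpina3n, an inhibitor of chymotrypsin-like proteases, had 52.3 and 589 CPM for resveratrol, 515 and 529 for obesity and 4.22 for control. All 11 other genes with a Kunitz domain were tested, 6 of them higher and 5 lower, led by Aplp2 with 1078 and 1789.6 CPM for resveratrol, 1514 and 1544 for obesity and 220.2 for control. Of 13 other genes with a Kazal-like or follistatin-like domain, 12 were tested, 7 of them higher and 5 lower, led by Sparc, a collagen-binding matrix protein, with 1214 and 5789 CPM for resveratrol, 5569 and 5067 for obesity and 268 for control. None of either list was called. For obesity against control their median log2 differences were 0.56 (Kunitz) and 1.36 (Kazal-like or follistatin-like), against -0.10 over all genes.

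Of the 28 inhibitors with at least 10 counts in the control library, 7 were at over 10% of the control level in resveratrol library 1 and 19 were at under 2%. The 7 were Spink4, Spink8, Spint1, Spint2, Wfdc1, Wfdc15b and Wfdc17. Wfdc15b stood at 22.1% of control, Spint2 at 36.6%, Spink8 at 40.3%, Spint1 at 66.5%, Wfdc1 at 101.5%, Wfdc17 at 258% and Spink4 at 339.8%. Over 10% of the control level were also 2 of the 28 in resveratrol library 2 (Wfdc1 and Wfdc17), 4 in obesity library 1 (Spint1, Wfdc1, Wfdc2 and Wfdc17) and 2 in obesity library 2 (Spink4 and Wfdc17). The values of Spink4 rest on few counts, 60 in resveratrol library 1 and 2 in obesity library 2, against 23 in control. In resveratrol library 1 none of the 14 neighbours on chromosome 2 passed 9.90%. The epididymis markers divided likewise. Crisp1, a sperm-coating protein of the epididymis, had 3397 CPM in resveratrol library 1 and 2459 CPM in the control library, whereas the other 11 markers were at most at 1.20% of control in that library and summed to 4.41 CPM. Gpx5, the highest marker in the control library, had 0.182 CPM in resveratrol library 1 and 28097 CPM in the control library.

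**Figure D4:**
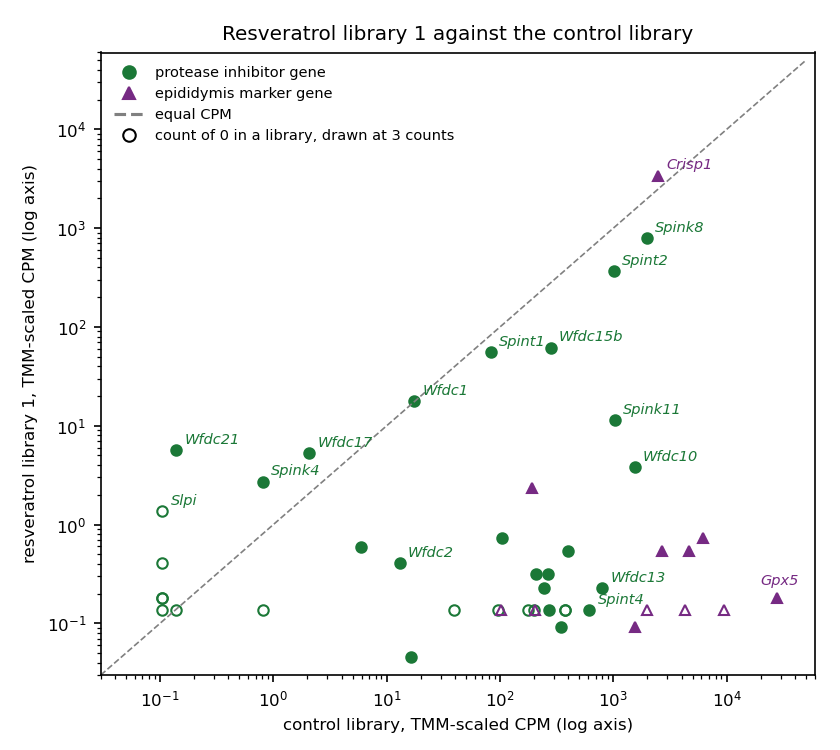
Inhibitor genes (circles) and 12 epididymis markers (triangles) in resveratrol library 1 (vertical axis) against the control library (horizontal axis), both as TMM-scaled CPM on log scales, with a dashed line at equal levels; open symbols have 0 counts in a library and are drawn at 3 counts. Wfdc1 lies closest to the line, with Crisp1 and Spint1 near it. Spink8, Spint2 and Wfdc15b lie somewhat below the line, Wfdc17 and Spink4 somewhat above it, and the other epididymis markers far below it.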

How the data were processed

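Per the labels' protocols, the 5 libraries of visceral fat RNA were made with a stranded poly-A kit. The deposited table holds raw read counts per gene, which the authors made with featureCounts after FastQC on GRCm39, per the submitters' processing notes. For alignment, annotation release, strand setting and tool versions, the names were not given in the sources used here. Gene names were matched by Ensembl ID for 65.7% of 78334 rows. The neighbour order came from RefSeq on GRCm38 and exon lengths from GENCODE vM21, with no coordinates carried over. Counts were tested in R 4.3.3 with edgeR 4.0.16: TMM scaling, filterByExpr (minimum count 10, minimum total 15), a robust quasi-likelihood fit over all 5 libraries with the spread shared by the lone control library, and Benjamini-Hochberg adjustment over 24779 genes with a threshold of 0.05. SE is the log2 difference divided by the square root of F. DESeq2 1.42.0 and limma 3.58.1 (voom) were alternatives.

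CPM were counts over the TMM-scaled total. A group at 0 counts was set at 3 counts per library for a bound, which is 0.105 to 0.157 CPM, and ratios of summed counts carry exact 95% intervals. Bounds and intervals cover counting error only. Every inhibitor with at least 1 CPM in any library was named (30 of 37), and of each list of related genes up to 3 with the highest CPM; Wfdc18, Gpx5, Crisp1, Klk5, Klk7, Klk14, further mast cell genes and single markers were named after their values were seen. The inhibitors and all lists were chosen with earlier results of these data known. On simulated counts with the spread of all 5 libraries, the edgeR fit recovered 3%, 41% and 4% of 16-fold changes for obesity against control, resveratrol against obesity and resveratrol against control. With the spread of the obesity pair it recovered 99% or more. Every gene and group had the same simulated spread, and the changed genes had a mean of at least 1 CPM. The rates may therefore not hold for these libraries, whose pairs differed in spread. Figures were drawn with matplotlib 3.10.9.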

Additional observations from a re-analysis of the deposited data

How the results depend on the processing

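The number of genes and inhibitors called depended on the settings. For obesity against control, where edgeR called 0 genes and 0 inhibitors, no filter on low counts gave 2575 genes and 8 inhibitors, DESeq2 4524 and 22, and a fit of only the groups compared 9269 and 23. Leaving out 1 library gave 0 to 9227 genes and 0 to 24 inhibitors, and each high count came from leaving out a resveratrol library (9227 and 23 without library 1, 9094 and 24 without library 2). For resveratrol against obesity, no filter gave 25 genes and DESeq2 219 genes and 1 inhibitor. Leaving out libraries gave 0 to 4758 genes and 0 to 10 inhibitors, with 33 genes and 1 inhibitor (Slpi) without resveratrol library 1, 4758 and 10 without resveratrol library 2, and 66 and 1 without control and resveratrol library 1 together. For resveratrol against control, no filter gave 1671 genes and 6 inhibitors, DESeq2 3085 and 11, limma-voom 80 and 5, and leaving out 1 library 0 to 7469 genes and 0 to 23 inhibitors (7469 and 23 without resveratrol library 1, 4199 and 18 without resveratrol library 2). Where a replicate was left out of a group of 2, the spread of the lone library was taken from the other groups. The cause of these changes was not tested. The other settings called 0.

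For obesity against control 28 of 29 log2 differences kept their sign under every setting. The exception was Wfdc2, at -2.90 under limma-voom and -7.93 to 1.92 with 1 library left out. For resveratrol against obesity 12 of 14 changed sign when libraries were left out. Their lowest and highest values were -1.60 and 5.67 for Slpi, -3.38 and 7.71 for Spink11, -2.66 and 1.20 for Spink2, -3.36 and 8.02 for Spink4, -0.85 and 13.28 for Spink8, -3.49 and 5.74 for Spint1, -0.35 and 3.11 for Spint2, -3.39 and 8.56 for Wfdc10, -8.06 and 12.57 for Wfdc15b, -0.96 and 1.497 for Wfdc17, -7.64 and 2.34 for Wfdc2, and -3.64 and 0.065 for Wfdc21. For resveratrol against control 27 of 29 kept their sign. Spink4 was at -1.91 under limma-voom and -7.24 to 1.78 with 1 library left out, and Wfdc1 at 0.36 with the replicate block and -1.70 to 0.045 with 1 library left out. In neither comparison with control could the lone control library be left out. Genes that passed the filter through that library alone could therefore hardly change sign, and their stable signs are no support.

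The replicate numbers were not shown to pair libraries: deviations of same-numbered libraries correlated at 0.282 over genes, with 2 numbered pairs. The replicate block called 0 genes and 0 inhibitors in each comparison. With 1 control library, no value against control has a spread of its own, and a group at 0 counts bounds the level at 0.105 to 0.157 CPM. The precision of low genes such as Wfdc12, with at most 35 counts, is limited by depth.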
